A study of Mus musculus with 2 samples.

Results

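The mouse miRNAs numbered from miR-670 to miR-719, apart from miR-673 and miR-679, were followed in exosomes, small vesicles released by cells, from the serum of tumour-bearing mice. The miRNAs were chosen by the number in their name, under a rule set with earlier results of these data known. The array carried 57 of them, counting each arm of a precursor separately, among 1881 mouse miRNAs. In the LLC group, mice carried subcutaneous tumours grown from 1000000 luciferase-expressing Lewis lung carcinoma (LLC) cells, a mouse lung cancer line, injected alone. In the MSC+LLC group, the LLC cells were injected together with BMSCs, mesenchymal stem cells grown from mouse bone marrow. The allograft mice were female C57BL/6 per the study's methods, which state their age, while the labels state none of these. Blood was taken once tumours averaged 200 mm3, and 100 ng of total RNA per sample was labelled with Cy3. The labels call the fluid serum and the text of the study calls it plasma. Each group was 1 array, and neither the labels nor the methods say how many mice it pools. There was therefore no replicate and no test, and each difference is one between 2 arrays. More vesicles from a source and more RNA per vesicle cannot be told apart in such material.

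miRNAs are short RNAs that guide Argonaute proteins to messenger RNAs, mainly by pairing through the seed, bases 2 to 8 of the mature strand. Each precursor hairpin has a 5p and a 3p arm, and often just a single arm accumulates. Registry numbers follow the order in which sequences were submitted, so a range of numbers is not a family. Many entries in this range were first described in mouse and have no well-known human counterpart. The array carries mouse probes only, so a restriction to rodents could not be examined. Serum exosomes hold miRNAs of blood cells, vessels and liver, and the marker list for these sources was in place: all 11 markers were detected in LLC and 9 in MSC+LLC. The red cell markers did not move alike: before scaling, miR-451a read 67741 intensity units in LLC and 15004 in MSC+LLC and miR-486a-5p 9057 and 2359, whereas miR-144-3p read 10777 and 186 and miR-144-5p 1345 and 23.3. The part of blood cell RNA in the results below was not tested.

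RefSeq (GRCm38.p6) held a mature sequence for 49 of the 57 miRNAs. Shown are those of miR-671-5p, miR-674-3p, miR-680, miR-690 and miR-706, each of which has a ratio or a bound between the arrays, followed by a pair that share their seed with other mouse miRNAs. Capitals mark the seed.
miR-671-5p: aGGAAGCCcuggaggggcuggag
miR-674-3p: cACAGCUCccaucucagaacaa
miR-680: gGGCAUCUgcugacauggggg
miR-690: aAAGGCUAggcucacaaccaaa
miR-706: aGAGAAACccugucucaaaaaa
miR-672-5p: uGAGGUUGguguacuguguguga
miR-705: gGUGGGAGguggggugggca

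In RefSeq, miR-671-5p lies at chr5:24592132-24592154 on the plus strand, within the span of Chpf2. miR-674-3p lies at chr2:117185186-117185207 on the plus strand, outside other genes. miR-690 lies at chr16:28599940-28599961 on the minus strand, within the span of Fgf12. miR-706 lies at chr6:120034290-120034311 on the minus strand, within the span of Wnk1. The mature sequence of miR-680 occurs at 3 loci, on chromosomes 6, 12 and X, so its probes cannot tell these copies apart. No pair among the 49 sequences shared a seed. A seed shared with some other mouse miRNA was found for 7 of the 49 (14.3%), against 27.9% of all miRNAs of the array with a sequence. Of the detected ones, miR-672-5p shares its seed with miR-377-5p, which was detected on neither array. miR-705 shares its seed with miR-7008-5p, which was detected on the LLC array only, and with miR-6922-5p and miR-6993-5p, which were detected on neither.

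The arrays differed in brightness as a whole. Over the probes detected on both, the 75th percentile of the signal (in intensity units) stood at 2883 for LLC and at 250.3 for MSC+LLC, which is 11.5-fold apart. Spike-in RNAs added at labelling differed by a mean log2 ratio of -1.32 and those added at hybridization by 0.038. The scanner software's own metrics for these spike-ins gave lower log2 ratios, of -1.72 and -0.293. Both arrays were on the same slide and scan, so slide position cannot be told apart from group. Ratios below are log2 of MSC+LLC over LLC after each array was divided by its 75th percentile, unless another scaling is named. Detection of a probe required over 50% of the kept spots to be well above background, and detection of a miRNA required 1 such probe. The error given with a signal is the SD over the spots of a probe, and with a ratio the same SD carried through to the ratio. Both are technical and say nothing about the spread between mice.

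On the LLC array 19 of the 57 miRNAs were detected (33.3%), where 26.7% of all miRNAs were. On the MSC+LLC array 6 were detected (10.5%), where 13.7% of all were. The same 6 were detected on both arrays, against 12.8% of all miRNAs. On the LLC array alone 13 were detected, against 262 of all 1881 miRNAs. None was detected on the MSC+LLC array alone, where only 18 of the 1881 were. Thus 31.6% of those seen on the LLC array were also seen on the dimmer array, while the share over the whole array was 47.8%. The remaining 38 were detected on neither, against 1361 of the 1881. When a spot needed only to be positive and significant, a looser rule, 29 were detected in LLC (50.9%, against 43.8% of all miRNAs) and 15 in MSC+LLC (26.3%, against 27.7%).

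**Figure D1:**
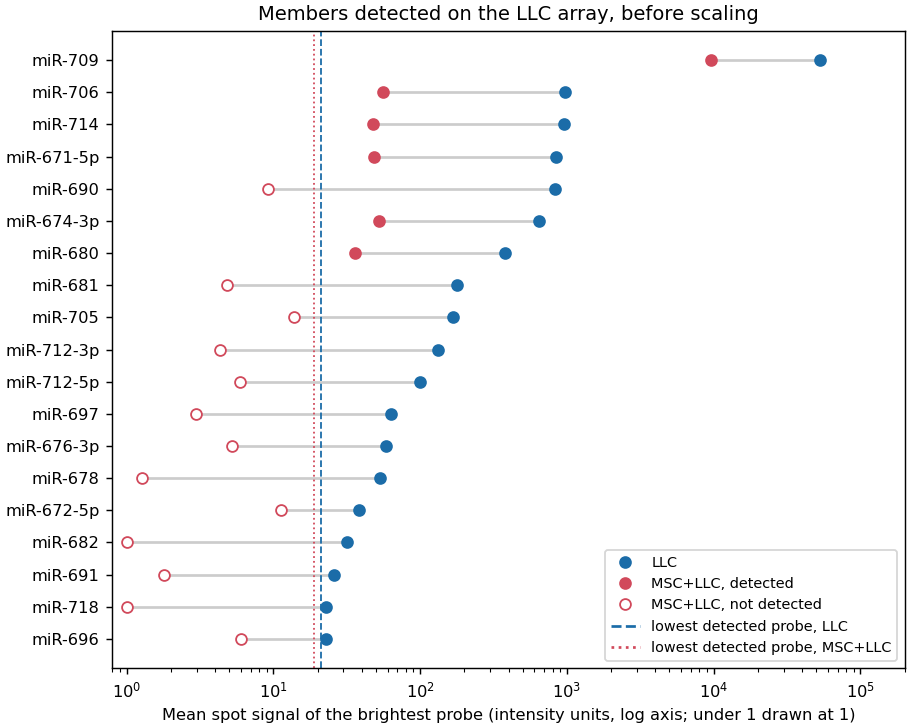
Mean spot signal of the brightest probe for each of the 19 miRNAs detected in LLC, on a log axis in intensity units before scaling, with filled points for detected and open points for undetected miRNAs and vertical lines at the lowest detected probe of each array. Of these, 6 stay to the right of the line on the MSC+LLC array, and miR-690, at 826 units in LLC, is among the 13 that do not.

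Names with an arm suffix and names without differed in detection. Of 29 miRNAs with no arm in the name, 13 were detected on the LLC array (44.8%), and of 28 with an arm, 6 were (21.4%). Over the whole array the shares were 32.1% of 321 and 25.6% of 1560. For 14 precursors both arms were on the array, and in 5 of them at least 1 arm was detected. miR-712 was the precursor with both arms detected. For the others the partner arm was not well above background on the LLC array: miR-671-3p read -0.848 intensity units, miR-672-3p -1.60, miR-674-5p 5.23 and miR-676-5p -0.236 at the brightest probe, beside negative control spots at 1.07 ± 3.46 (SD).

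None of the 6 miRNAs measured on both arrays was 2-fold higher or lower, where 27.1% of the 240 miRNAs measured on both arrays passed 2-fold upward and 11.2% passed it downward. miR-709 and miR-680 lay above 0, and miR-674-3p, miR-714, miR-706 and miR-671-5p lay below it. Of 18 alternative settings, 6 put miR-709 and 8 put miR-680 below 0, and normexp background correction alone put the other 4 above it. Their median log2 ratio was -0.33, while that of all 240 was 0.15. Under the 7 other scalings that multiply each array by a single factor the distance between these medians is the same by construction, at -0.48.

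miR-709 was read far above the detection limit on both arrays. It is known as a miRNA that also acts in the nucleus, on the primary transcript of miR-15a and miR-16-1. Its first probe read 16845 ± 942 intensity units for LLC (SD, 15 spots) and 1235 ± 77.5 for MSC+LLC (15 spots), a log2 ratio of -0.24 ± 0.12. Its second probe read 52967 ± 3108 (14 spots) and 9643 ± 443 (15 spots), a log2 ratio of 1.07 ± 0.11. After scaling the probes disagreed in direction, by more than their spot-to-spot SD. Before scaling both were lower on the MSC+LLC array, by 13.6-fold and 5.49-fold. Their mean log2 ratio was 0.41, or 1.33-fold higher, and 147 of the 240 miRNAs had a lower ratio. The gap of 1.31 between the probes compares with a median of 0.13 over 146 miRNAs with at least 2 probes on both arrays, and only miR-669f-3p had a wider gap, of 2.64. No spot was saturated on either array. In 26 of the 31 miRNAs with a probe over 10000 units on the LLC array, the brightest probe had a higher ratio than the dimmest, as in miR-709, against 72 of all 146. The limit of 10000 units was chosen after the values of miR-709 were seen, and its part in the ratio was not tested.

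miR-680 was the closest to no difference. Its 4 probes read 381 ± 18.9, 312 ± 27.2, 269.8 ± 19.8 and 283 ± 24.6 intensity units on the LLC array (SD, 7 spots each). On the MSC+LLC array they read 35.9 ± 6.66, 29.0 ± 5.51, 27.1 ± 5.96 and 24.2 ± 4.03 (7 or 8 spots). The probe ratios, 0.12, 0.10, 0.21 and -0.02, lay within their spot-to-spot SD of 0. The mean log2 ratio was 0.10 ± 0.15, and 114 of the 240 miRNAs had a lower ratio.

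miR-674-3p also differed little between the arrays. The brighter pair of its 3 probes read 359 ± 11.1 and 650.5 ± 30.2 intensity units for LLC (SD, 8 and 9 spots) and 27.9 ± 2.19 and 52.7 ± 4.48 for MSC+LLC (8 and 10 spots). Their log2 ratios were -0.16 ± 0.12 and -0.10 ± 0.14, with a mean of -0.13 ± 0.093. Its dimmest probe read 53.1 ± 4.27 for LLC and 4.40 ± 5.90 for MSC+LLC, where it was not well above background.

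miR-671-5p, which directs cleavage of the circular RNA Cdr1as, had the lowest ratio of the 6. Its 4 probes read 386 ± 54.0, 480.3 ± 37.9, 600.0 ± 21.1 and 848 ± 104 intensity units on the LLC array (SD, 7 or 8 spots). On the MSC+LLC array they read 18.8 ± 2.80, 27.7 ± 1.97, 33.5 ± 4.94 and 48.2 ± 8.65 (6 or 7 spots). All 4 probes were lower, with log2 ratios of -0.83, -0.59, -0.64 and -0.61, each beyond its spot-to-spot SD. The mean was -0.67 ± 0.13, or 1.59-fold lower, and 39 of the 240 miRNAs had a lower ratio. The first probe on the MSC+LLC array was the dimmest of all probes detected there.

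miR-714 and miR-706 rested on fewer probes. miR-714 was measured on both arrays by 2 of its 4 probes, which read 366 ± 52.7 and 949.7 ± 40.0 intensity units for LLC and 26.0 ± 6.25 and 47.8 ± 2.24 for MSC+LLC (SD, 7 spots each). Their log2 ratios were -0.29 and -0.78, with a mean of -0.54 ± 0.21, or 1.45-fold lower. miR-706 was measured by 1 of its 4 probes, at 976 ± 60.9 for LLC (6 spots) and 55.4 ± 13.4 for MSC+LLC (7 spots). Its log2 ratio was -0.61 ± 0.36, or 1.53-fold lower. Its other probes read -2.23, 13.0 and 113 on the LLC array, and none of these was detected on the MSC+LLC array.

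**Figure D2:**
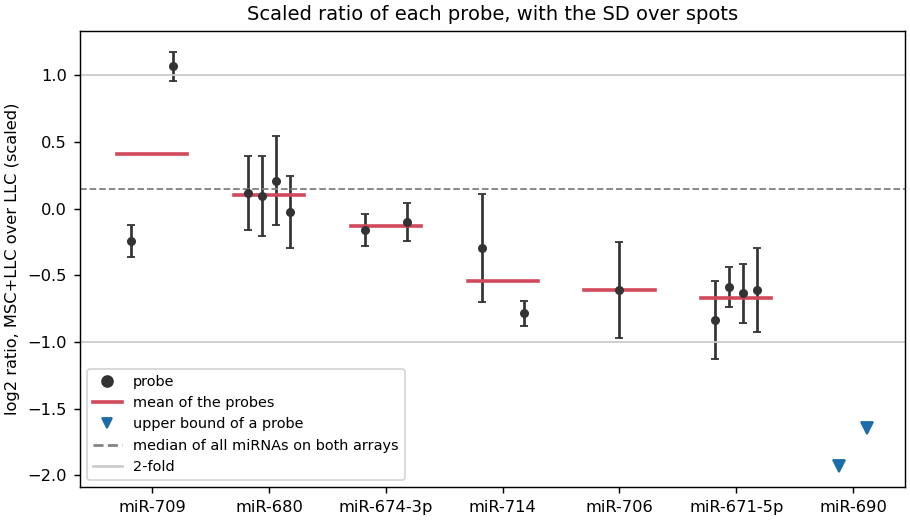
Scaled log2 ratio of MSC+LLC over LLC for each probe detected on both arrays (points, with the SD over spots), the mean per miRNA (red bars), and the upper bounds of the 2 probes of miR-690 (triangles), with the median of all 240 miRNAs (dashed) and the 2-fold limits (grey). The probes of miR-709 lie on opposite sides of 0, at -0.24 and 1.07, whereas the 4 probes of miR-671-5p lie together below 0.

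miR-690 was the exception among the miRNAs seen on the LLC array only. This miRNA is known from macrophage exosomes and from work on insulin sensitivity. Its probes read 826 ± 98.6 and 676 ± 168 intensity units for LLC (SD, 15 spots each) and 9.20 ± 5.79 and 7.75 ± 3.25 for MSC+LLC (15 and 11 spots, 4 spots having been left out as outliers). On the LLC array 30 of 30 spots were well above background, and on the MSC+LLC array 1 of 26 was. Before scaling the spots did not overlap, with 249.8 as the lowest for LLC and 23.6 as the highest for MSC+LLC. Multiplied by the 11.5-fold difference in brightness, that highest spot comes to 272 units, so the ranges touch after scaling when the probes are pooled. These extremes come from different probes. On the first probe the lowest LLC spot was 661. On the second the highest kept MSC+LLC spot was 16.4 before scaling, so within each probe the scaled ranges stay apart.

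As the MSC+LLC signal was not well above background, the ratio of miR-690 has a bound only: at least 3.45-fold lower, or a log2 ratio of -1.79 or less. The bounds of its probes were -1.93 and -1.64. Among the 262 miRNAs seen on the LLC array only, 0.382% had a bound past 2-fold, which is miR-690 alone. For a probe, a bound of 2-fold lower needs 433.0 units or more on the LLC array. A measured ratio under -1.79 was found for 9 (3.75%) of the 240 miRNAs. With positive and significant spots, miR-690 was measured on both arrays, at a log2 ratio of -3.09. A bound was kept only where it lay below 0, so its sign was fixed in advance. Over the 15 alternatives that gave a bound, it ran from -8.43 with the deposited values to -0.08, or 1.06-fold, with normexp background correction. The deposited values set an undetected miRNA to 0.1.

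**Figure D3:**
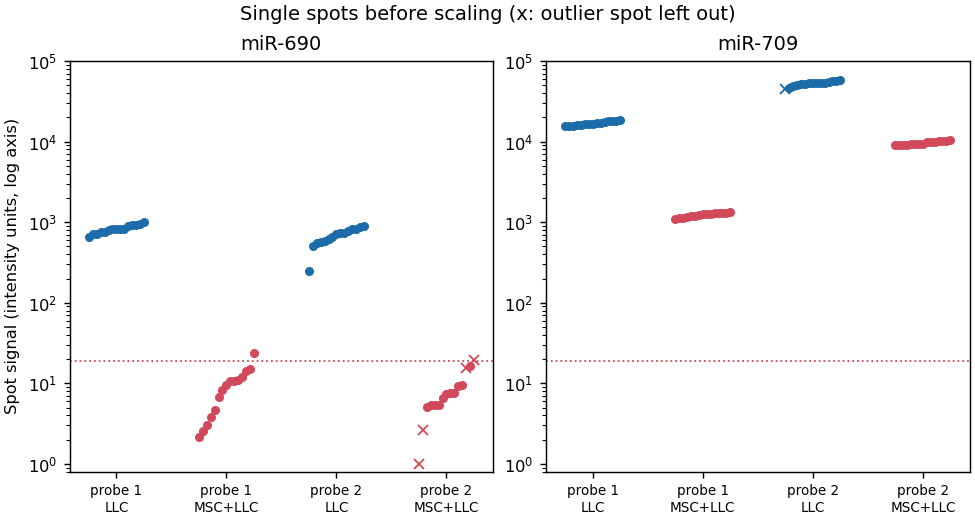
Single spots of miR-690 and miR-709 before scaling, sorted by signal within each probe and array, on a log axis in intensity units, with crosses for outlier spots that were left out and values under 1 drawn at 1. The dotted line is the lowest detected probe of the MSC+LLC array, and nearly all MSC+LLC spots of miR-690 lie under it, while its kept LLC spots lie at 249.8 or higher.

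The other 12 miRNAs detected on the LLC array only have no bound, because a probe needed 216.5 units on the LLC array for any bound below 1 and the brightest of them reached 179. They may be lower, level or higher in the MSC+LLC sample within this limit. miR-681 (within the span of Cdkl1), miR-705 (Rab11fip5) and miR-712-3p read 179, 167 and 132 units for LLC and 4.82, 13.8 and 4.31 for MSC+LLC, each value being the brightest probe on that array. miR-712, which is made from a spacer of the ribosomal RNA precursor and responds to blood flow in endothelium, also showed its 5p arm, at 99.6 and 5.90 units. miR-697 (Sf3a3), miR-676-3p (Eda) and miR-678 (Prmt2) read 63.0, 58.1 and 53.2 units for LLC and 2.99, 5.26 and 1.27 for MSC+LLC. None of these 7 was detected on the MSC+LLC array, where negative control spots read 2.93 ± 2.97 units (SD).

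The remaining 5 were nearer to the detection limit on the LLC array, where the lowest detected probe was at 20.9 units. miR-672-5p (Nexmif) and miR-682 (Gm4149, a pseudogene) read 38.0 and 31.6 units for LLC and 11.2 and -0.071 for MSC+LLC. miR-691 (Robo2), miR-718 (Irak1) and miR-696, which is known for its link to Pgc-1alpha in muscle, read 25.7, 22.9 and 22.7 units for LLC and 1.79, -0.208 and 6.05 for MSC+LLC. They passed with 85.7%, 71.4% and 57.1% of the spots of their best probe well above background. miR-711 and miR-710, just outside, had 42.9% and 28.6%, at 22.1 and 20.1 units. Spot share and brightness put these miRNAs in the same order. The cut between miR-696 and miR-711 was set by the spot rule and not by a gap in brightness.

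The 38 miRNAs detected on neither array read between -3.54 and 22.1 units at their brightest probe for LLC (median 0.185) and between -3.05 and 6.45 for MSC+LLC (median 0.255). They include both arms of miR-675, which lies within the imprinted H19 transcript, both arms of miR-708, within Tenm4, and miR-687, which is induced by low oxygen in the kidney. Also undetected were both arms of miR-670, miR-677, miR-693, miR-698, miR-700, miR-701 and miR-702, and the single arms miR-671-3p, miR-672-3p, miR-674-5p and miR-676-5p. Those without an arm in the name were miR-683, miR-684, miR-686, miR-688, miR-692, miR-694, miR-695, miR-703, miR-704, miR-707, miR-710, miR-711, miR-713, miR-717 and miR-719. The detection flag of the scanner software added miR-677-3p, miR-700-5p, miR-703, miR-710 and miR-711 for LLC and miR-705 for MSC+LLC.

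Detected and undetected sequences overlapped in composition. The GC content of the 14 detected miRNAs with a sequence had a median of 54.8% (range 36.4 to 81.0), and that of the 35 undetected a median of 50% (33.3 to 71.4). All miRNAs of the array had medians of 54.5% where detected on the LLC array and 52.2% where not. Cy3 was joined to the 3′ end of the RNA, and the last base was A in 7 of the 14 detected, G in 5, U in 2 and C in 0. Among the 35 undetected it was A in 10, C in 10, G in 8 and U in 7, and over all miRNAs of the array with a sequence it was A in 20.8%, G in 30.7%, U in 28.8% and C in 19.7%. The array-wide shares were not split by detection, and a link between the last base and detection was not tested. The mature lengths ran from 19 to 26 bases, with a median of 22, and 43 of the 49 lay within the span of another gene.

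Precursors were folded after these values had been seen. The folding energy per base of the 38 precursor hairpins had a median of -0.357 kcal/mol, against -0.406 over all 1005 mouse hairpins in RefSeq, and 25 of the 38 (65.8%) were less stable than the latter. It was -0.374 for the 15 hairpins of detected miRNAs and -0.352 for the 23 of undetected ones. A miRNA with more than 1 hairpin counts once for each, namely miR-680 among the 15 and miR-683 and miR-692 among the 23. The precursor of miR-706 is not among the 38. miR-706 resembles the B1 repeat of rodent genomes, and its sequence was also searched for in promoters. Its first 16 bases as DNA, AGAGAAACCCTGTCTC, were found on either strand in 28 of 32851 promoter windows of 300 bases (0.0852%), and its whole sequence in 2. The next of the 49 was in 1 window, 46 (93.9%) were in none, and 94.8% of all miRNAs of the array with a sequence were in none. RefSeq held no mature sequence for miR-709 and miR-714, so the search did not cover them. Probe sequences were not used here, so whether the probes of miR-706, or those of miR-709, also bind fragments of the repeat was not tested.

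The level of every ratio followed the scaling. Without scaling all 6 miRNAs were lower in the MSC+LLC sample, from 8.66-fold lower for miR-709, over 10.7-fold for miR-680, 12.6-fold for miR-674-3p, 16.7-fold for miR-714 and 17.6-fold for miR-706, to 18.3-fold lower for miR-671-5p. The bound of miR-690 was then at least 39.8-fold lower. Their median log2 ratio moved to -3.86 without scaling, -3.90 with the hybridization spike-ins and -2.54 with the labelling spike-ins, and that of all 240 miRNAs moved along to -3.38, -3.42 and -2.06.

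**Figure D4:**
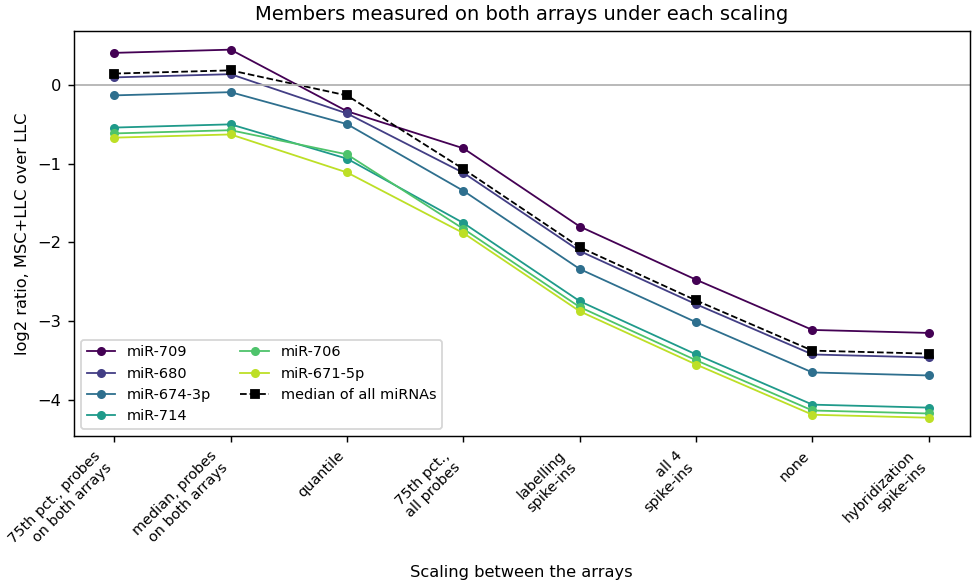
Log2 ratio of MSC+LLC over LLC of the 6 miRNAs measured on both arrays under each scaling between the arrays (lines), with the median of all 240 miRNAs (dashed). The lines run in parallel except at quantile normalization, lie lowest with no scaling and with the hybridization spike-ins, and have miR-671-5p at the bottom under each scaling shown.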

How the data were processed

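RNA of serum exosomes was measured on 1-colour Agilent miRNA arrays of the mouse, and the sample titles gave the groups LLC and MSC+LLC. Per the file headers, the authors extracted spot intensity on a linear scale, background-subtracted and not scaled between arrays, with version 11.5.1.1 of Feature Extraction (10.7 in the submitters' processing notes). The deposited table of the series holds log2 values that the authors made with GeneSpring GX, whose settings for these arrays were not stated. Against the scanner files, it equals log2 of the summed signal minus 7.02 for LLC and 3.48 for MSC+LLC, with a largest deviation of 7.66e-06 and undetected miRNAs at 0.1 before the log. Its column medians were -10.34 and -6.80, which are those floors. As a result, the 33 of the 57 miRNAs at the floor in both columns differ there by 3.54 with no signal behind it.

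Control spots and outlier spots (3.04% and 2.95%) were left out, and the kept spots of a probe, out of 7 to 30, were averaged. Each array's signals were scaled to the 75th percentile over those probes that both arrays detected, and the log2 ratios of a miRNA's probes detected on both were averaged. A probe detected on 1 array gave a bound, against the higher of its own signal and the lowest detected probe of the other array. No test was run, and the 2 arrays limit the precision. Every miRNA of the range detected on either array is named with its values. The members, lists and settings were chosen with earlier results of these data known. Scaling, detection rule, outlier spots, spot and probe summaries, background correction, fold threshold and the deposited values were varied. The planned rank of each level was not made, since the levels of different probes are not comparable. Chosen after seeing values were the hairpin energies, the promoter search, the spot-by-spot view of miR-690 and miR-709 and the limit of 10000 units. The functions were tested on simulated data. Python 3.11.15, numpy 2.4.6, pandas 2.3.3, matplotlib 3.10.9, ViennaRNA 2.7.2, and limma 3.58.1 under R 4.3.3 (normexp, offset 50) were used. Names and sequences came from RefSeq tables of GRCm38.p6, a build other than that of the array design.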

Additional observations from a re-analysis of the deposited data

How the results depend on the processing

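With positive and significant spots, 29 miRNAs of the range were detected in LLC, 15 in MSC+LLC and 14 in both (43.8% and 27.7% of all miRNAs were detected in LLC and in MSC+LLC by this rule), with 3 at least 2-fold higher and 1 lower, or 4 and 3 with bounds. The other detection rules gave 17 to 24 in LLC (29.8 to 42.1%, against 25.6 to 31.7% of all miRNAs). In MSC+LLC they gave 6 or 7 (10.5 to 12.3%, against 13.1 to 16.5% of all). The median log2 ratio of the miRNAs measured on both arrays, -0.33 in the report, came to -1.55 with the 75th percentile of all probes, -0.69 with quantile normalization, -3.86 with no scaling, -3.22 with all 4 spike-ins, -2.54 with the labelling and -3.90 with the hybridization spike-ins. It was -0.59 with the summed signal, -0.96 with the deposited values and 0.50 with normexp, which turned the sign. The count at least 2-fold higher, 0 in the report, was 1 with the brightest probe (miR-709) and 1 with normexp, also with bounds. Normexp raised the array-wide share passing 2-fold upward from 27.1% to 46.25%, so 1 of 6 in the range is no excess over the array. The count at least 2-fold lower, 0 in the report, was 5 with the 75th percentile of all probes, 1 with quantile normalization, 6 with no scaling and with each of the 3 spike-in scalings, 1 with the summed signal, 3 with the deposited values and 2 at a fold of 1.5. Over all miRNAs measured on both arrays, the share at least 2-fold lower moved likewise from 11.2% to 52.9% with the 75th percentile of all probes, 17.1% with quantile normalization, 90.4% with no scaling, 75 to 90.4% with the spike-ins, 12.9% with the summed signal and 19.7% with the deposited values. With bounds included, 1 in the report, it was 6 with the 75th percentile of all probes, 2 with quantile normalization, 14 with no scaling, 11 with all 4 spike-ins, 8 with the labelling and 14 with the hybridization spike-ins, 19 with the deposited values and 0 with normexp. The counts with bounds, with positive and significant spots, with the brightest probe and at a fold of 1.5 stand here without an array-wide share. Whether they follow the whole array was not tested. The cause of these shifts was not tested. The remaining alternatives kept these counts within 1.5 times, and normexp alone put miR-671-5p, miR-674-3p, miR-706 and miR-714 above 0, at 0.51, 0.85, 0.12 and 0.50. miR-709 lay above 0 in 12 of 18 alternatives. No paired analysis was possible because LLC and MSC+LLC have 1 array each. The dimmer MSC+LLC array limits what can be seen below 216.5 units on the LLC array.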
